A study of Mus musculus with 8 samples.

Results

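Genes that handle short-chain fatty acids and lactate were followed in mouse colon organoids exposed to fecal supernatants. They were 8 genes, namely the carriers Slc16a1, Slc16a3 and Slc5a8, the carrier chaperone Bsg, the fatty acid receptor Ffar2 and the enzymes Acss2, Acads and Acsm3, taken by their symbols from a table of 29234 genes. All 8 of 8 were found, and all 8 were among the 12729 genes that passed a filter on low counts. None of the 8 differed between the supernatants at an adjusted p of 0.05 in edgeR, and neither did any other gene of the 12729 (0%). All 8 had a mean below that of the control group, where 52.5% of all genes had a negative value, with Log2(FC), the log2 fold change of FS_DSS against FS_CTR, between -0.11 for Slc5a8 and -1.06 for Ffar2. With library totals as the scaling 4 of the 8 were negative. In each of the 8 genes the libraries of the 2 groups overlapped, and 7.58% of all genes had FS_DSS wholly below FS_CTR.

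Colon organoids are closed epithelial structures that grow from isolated crypts in a gel. Here wild-type organoids from young male C57BL/6N mice, used after 1 passage, received microbe-free supernatant of feces at 4 mg/mL, with a time of 5 days in the sample labels. In the FS_CTR group (4 libraries) the feces came from healthy mice, and in the FS_DSS group (4 libraries) from mice with dysbiosis caused by dextran sodium sulfate, which damages the lining of the colon. The feces of each kind were pooled before use, so the 4 libraries of a group are not 4 donor mice, and no source used here says whether they were separate cultures. The p values therefore measure the spread between these libraries, which may be technical. The comparison asks which epithelial transcripts differ when the supernatant comes from mice with dysbiosis instead of healthy mice.

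The libraries held 18968416 to 27035243 counts assigned to genes. Of the 8, FS_CTR replicates 3 and 4 stood apart. The 13 protein genes of the mitochondrial genome took 38.7% and 33.3% of their counts, against 2.83% to 6.98% in the other 6 libraries, and their TMM factors, which correct for such differences in composition, were 0.641 and 0.678 against 1.13 to 1.18. Levels below are CPM, counts scaled to the library's total, after TMM scaling. Each of the 8 genes is given with and without FS_CTR replicates 3 and 4 below. Epithelial markers such as Krt8, the highest of the list, summed to 10975 to 13938 CPM in FS_CTR and 12415 to 14039 CPM in FS_DSS, while 6 immune markers summed to at most 17.5 CPM in any library.

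Bacteria in the colon ferment fibre to acetate, propionate and butyrate, and butyrate is the main fuel of the colon epithelium. Butyrate and lactate enter and leave cells through proton-coupled monocarboxylate carriers, of which MCT1 (Slc16a1) is the common form and MCT4 (Slc16a3) the form known for lactate export from glycolytic cells. Both need the membrane glycoprotein basigin (Bsg) to reach the cell surface. SMCT1 (Slc5a8) takes up the same acids together with sodium. Inside the cell a short-chain acid is joined to coenzyme A by synthetases, among them Acss2 for acetate and the mitochondrial Acsm3 for medium and short chains, and Acads carries out the first oxidation step of butyryl-CoA. Ffar2 is a G protein-coupled receptor for acetate and propionate.

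The promoters of the proton-coupled carriers are shown because Slc16a3 varied more between libraries than any other of the 8 genes and because the ratio of these carriers is described below. Both sequences are RefSeq windows, made on GRCm38.p6, from 250 bases before to 50 bases after the RefSeq start of the gene, and both were found unchanged in GRCm39, where the positions below were read. The RefSeq starts differ from the GENCODE gene starts given further on, lying 169 bases downstream in Slc16a1 and 1047 bases downstream in Slc16a3, so the Slc16a3 window lies inside the GENCODE gene. Capitals mark the letters ACGTG, a form of the core of the hypoxia response element, on either strand, and CACGTG, an E-box that contains them. Other forms of the core, such as GCGTG, were not searched or marked.
Slc16a1: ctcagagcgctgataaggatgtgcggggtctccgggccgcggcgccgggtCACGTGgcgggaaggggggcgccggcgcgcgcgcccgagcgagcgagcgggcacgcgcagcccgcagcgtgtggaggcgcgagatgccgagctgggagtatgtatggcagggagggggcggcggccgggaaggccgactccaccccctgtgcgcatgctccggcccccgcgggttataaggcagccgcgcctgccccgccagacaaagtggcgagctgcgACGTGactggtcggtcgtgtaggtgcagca
Slc16a3: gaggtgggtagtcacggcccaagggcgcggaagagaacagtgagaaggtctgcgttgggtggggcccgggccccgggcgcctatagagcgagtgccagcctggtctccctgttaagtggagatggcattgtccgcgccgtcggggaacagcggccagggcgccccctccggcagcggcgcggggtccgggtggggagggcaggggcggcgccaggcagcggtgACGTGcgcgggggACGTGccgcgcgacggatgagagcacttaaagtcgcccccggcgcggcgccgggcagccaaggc
The Slc16a1 window lies at chr3:104545730-104546029 on the plus strand and the Slc16a3 window at chr11:120839643-120839942 on the plus strand. The letters ACGTG occurred at 2 places in Slc16a1, the first at base -200 inside an E-box and the last at base 21. In Slc16a3 they occurred at 2 places, at bases -27 and -14. All positions were counted from the RefSeq start. Among all 32851 promoter windows 19.6% held ACGTG and 7.15% the E-box. Of the 8 genes 7 matched a promoter window and 3 of these held ACGTG in at least 1 window, Ffar2 being the other one. The percentages count windows and not genes. Ffar2 held ACGTG in its window 1 and not in its windows 2, 3 and 4. These matches describe letters only.

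Slc16a1 (ENSMUSG00000032902.3, GRCm39 chr3:104545811-104565780, plus strand, 5 exons in the canonical transcript) encodes the main butyrate and lactate carrier. It was measured at 107, 126, 115 and 94.3 CPM in FS_CTR replicates 1 to 4 and at 117, 105, 81.5 and 60.3 CPM in FS_DSS replicates 1 to 4. The lowest libraries were FS_DSS replicates 3 and 4, while FS_DSS replicates 1 and 2 lay within the range of FS_CTR. The means were 111 ± 13.3 CPM in FS_CTR and 90.8 ± 25.0 CPM in FS_DSS (SD, n = 4 each). The difference, a Log2(FC) of -0.28 ± 0.19 (SE), did not pass the test (unadjusted p of 0.176, adjusted p = 0.384, edgeR's quasi-likelihood test with Benjamini-Hochberg adjustment over all genes tested). It was -0.13 without FS_DSS replicate 4, -0.43 without FS_DSS replicate 1 and -0.36 without FS_CTR replicates 3 and 4. The long non-coding RNA genes Gm43581 and Gm43585 overlap Slc16a1 on the same strand.

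Slc5a8 (ENSMUSG00000020062.9, chr10:88721766-88765377, plus strand, 15 exons), the sodium-coupled carrier, was at 45.6, 49.3, 54.6 and 45.1 CPM in FS_CTR and at 52.1, 57.2, 40.2 and 30.3 CPM in FS_DSS, in the order of the replicates. Its libraries showed the same layout as those of Slc16a1, with FS_DSS replicates 3 and 4 below all FS_CTR libraries and FS_DSS replicates 1 and 2 within or above their range. The means of 48.7 ± 4.42 and 45.0 ± 12.1 CPM (SD, n = 4 each) gave a Log2(FC) of -0.11 ± 0.19, which changed sign to 0.035 without FS_DSS replicate 4, was -0.25 without FS_DSS replicate 2 and was -0.080 without FS_CTR replicates 3 and 4. The edgeR test gave an adjusted p of 0.725. Across the 8 libraries the log2 levels of Slc5a8 and Slc16a1 had a Pearson correlation of 0.90, and of 0.92 after the group means were removed. These 8 points share their libraries and scaling factors, and the value is a description.

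Slc16a3 (ENSMUSG00000025161.18, chr11:120838846-120851694, plus strand, 6 exons), the lactate exporter, was the most variable of the 8 genes, with a 9.48-fold range. It was at 13.4, 11.5, 43.5 and 20.2 CPM in FS_CTR and at 16.8, 4.59, 12.4 and 10.7 CPM in FS_DSS. The 2 highest values belonged to FS_CTR replicates 3 and 4, the libraries with the large mitochondrial share, and FS_CTR replicates 1 and 2 lay among the FS_DSS libraries. The means were 22.1 ± 14.7 and 11.1 ± 5.05 CPM (SD, n = 4 each). The Log2(FC) of -0.98 ± 0.49 (edgeR, unadjusted p of 0.0750, adjusted p = 0.252) became -0.43 without FS_CTR replicate 3 and -0.16 without FS_CTR replicates 3 and 4. DESeq2 gave a Log2(FC) of -0.99 with an unadjusted p of 0.0332 and an adjusted p of 0.145. That is past the thresholds used in the study, an unadjusted p of 0.05 and a Log2(FC) of 0.58 in size, which 6.76% of all genes passed downward in DESeq2. The gene overlaps Ccdc57 and Csnk1d on the other strand. The kit kept strand, but how strand was set in the counting was not stated in the sources used here.

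The ratio of the proton-coupled carriers followed Slc16a3. The log2 ratio of Slc16a3 to Slc16a1 CPM was -2.96, -3.40, -1.39 and -2.20 in FS_CTR and -2.76, -4.37, -2.67 and -2.44 in FS_DSS. FS_CTR replicate 3 was the highest and FS_DSS replicate 2 the lowest, and the groups overlapped. The group means of -2.49 ± 0.88 and -3.06 ± 0.88 (SD, n = 4 each) differed by -0.57, less than the spread within either group, and the difference was 0.12 without FS_CTR replicates 3 and 4. It was -0.14 without FS_DSS replicate 2, -0.21 without FS_CTR replicate 3 and -0.88 without FS_CTR replicate 2. In CPM, Slc16a1 exceeded Slc16a3 by 2.64-fold in FS_CTR replicate 3 and by 22.8-fold in FS_DSS replicate 2, the extremes of the series.

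**Figure D1:**
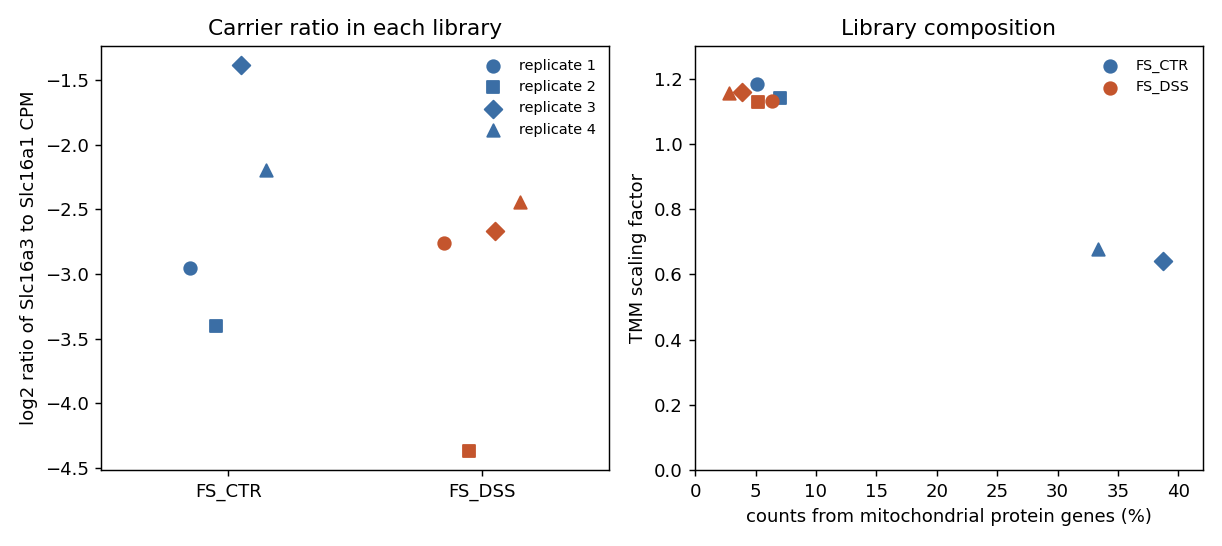
Left, log2 ratio of Slc16a3 to Slc16a1 CPM (vertical axis) in each library, with a symbol for each replicate number. Right, TMM scaling factor against the percentage of counts from the mitochondrial protein genes, in which FS_CTR replicates 3 and 4 lie at 38.7% and 33.3%, apart from the other 6 libraries.

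Bsg (ENSMUSG00000023175.17, chr10:79540143-79547821, plus strand, 8 exons), the chaperone of both proton-coupled carriers, had the highest level of the 8 genes. Its libraries were at 494, 655, 688 and 652 CPM in FS_CTR and at 464, 490, 523 and 485 CPM in FS_DSS. In FS_CTR, 3 libraries lay above all FS_DSS libraries, and FS_CTR replicate 1 lay among the FS_DSS libraries. The means were 622 ± 87.2 and 491 ± 24.5 CPM (SD, n = 4 each). The Log2(FC) of -0.34 ± 0.12 had an unadjusted p of 0.0205 and an adjusted p of 0.144 in edgeR, and 0.0531 after adjustment in DESeq2. Without FS_CTR replicate 1 the Log2(FC) was -0.44 and the adjusted p was 0.0356, past the threshold, in a fit where 5.46% of all genes were lower after adjustment. The edgeR unadjusted p rose past 0.05 without FS_CTR replicate 2 (0.0540) or FS_CTR replicate 3 (0.0589). The Log2(FC) was -0.23 with an unadjusted p of 0.116 and an adjusted p of 0.345 without FS_CTR replicates 3 and 4.

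Ffar2 (ENSMUSG00000051314.13, chr7:30517773-30536075, minus strand, 3 exons), the receptor, was the lowest of the 8 genes. In the edgeR fit without a block it was the 1 gene of the 8 past both thresholds of the study, in DESeq2 it passed along with Slc16a3, and with the replicate block Slc16a3 passed and Ffar2 did not. It had 100, 83, 12 and 15 counts in FS_CTR and 25, 23, 39 and 31 counts in FS_DSS, or 3.17, 2.73, 0.988 and 0.976 CPM against 0.838, 0.755, 1.27 and 1.00 CPM. FS_CTR replicates 1 and 2 stood above the other 6 libraries, and FS_CTR replicates 3 and 4 lay at the level of FS_DSS. The means of 1.96 ± 1.15 and 0.965 ± 0.225 CPM (SD, n = 4 each) differed by less than the SD of FS_CTR. The Log2(FC) was -1.06 ± 0.43 (edgeR, unadjusted p of 0.0363, adjusted p = 0.179), and it was -1.61 ± 0.27 (adjusted p = 0.101) when only FS_CTR replicates 1 and 2 were kept. The unadjusted p was 0.121 without FS_CTR replicate 1, where the Log2(FC) was -0.74, and 0.102 without FS_CTR replicate 2. Leaving out FS_DSS replicate 1, 2 or 4 also moved it past 0.05, to 0.0803, 0.0859 and 0.0644, and with the replicate block it was 0.112. With 12 and 15 counts, the lower FS_CTR values rest on little depth.

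The genes with levels most like those of Ffar2 across the 8 libraries, among 10059 genes with a mean of at least 5 CPM, were Aldh5a1, an enzyme of 4-aminobutyrate breakdown (Pearson r = 0.970), the chemokine Ccl6 (r = 0.962) and the palmitoyltransferase Zdhhc2 (r = 0.961). These 3 correlations were picked as the highest of all and describe the layout of the libraries. Ccl6, for one, was at 17.8 and 13.8 CPM in FS_CTR replicates 1 and 2 and between 4.02 and 8.70 CPM in the other 6 libraries.

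Acss2 (ENSMUSG00000027605.20, chr2:155355679-155428016, plus strand, 18 exons) makes acetyl-CoA from acetate in the cytosol and nucleus. It was at 62.7, 53.7, 39.8 and 36.6 CPM in FS_CTR and at 43.3, 38.6, 40.9 and 28.1 CPM in FS_DSS. As with Ffar2, FS_CTR replicates 1 and 2 were the highest libraries and FS_CTR replicates 3 and 4 lay within the FS_DSS range. The means were 48.2 ± 12.2 and 37.7 ± 6.70 CPM (SD, n = 4 each), with a Log2(FC) of -0.36 ± 0.20 (edgeR adjusted p = 0.292) that became -0.63 ± 0.17 (adjusted p = 0.144) without FS_CTR replicates 3 and 4, -0.20 without FS_CTR replicate 1 and -0.24 without FS_DSS replicate 4. Ggt7 and Acss2os lie on the opposite strand of this gene. The processed pseudogenes Mipep-ps and Gm20637 overlap Acss2 on the same strand. The log2 levels of Ffar2 and Acss2 had a correlation of 0.81 over the 8 libraries.

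Acads (ENSMUSG00000029545.15, chr5:115248357-115257405, minus strand, 10 exons), the short-chain acyl-CoA dehydrogenase of the mitochondrial matrix, was among the steadiest. It was at 103, 129, 125 and 104 CPM in FS_CTR and at 95.9, 111, 91.4 and 83.8 CPM in FS_DSS. In FS_DSS, 3 libraries lay below all FS_CTR libraries and FS_DSS replicate 2 lay within their range. The means were 115 ± 13.6 and 95.5 ± 11.5 CPM (SD, n = 4 each), and the Log2(FC) of -0.27 ± 0.12 had an unadjusted p of 0.0452 and an adjusted p of 0.197 in edgeR. Leaving out FS_CTR replicates 3 and 4 gave -0.28 with an unadjusted p of 0.0760. The edgeR unadjusted p also rose past 0.05 without FS_CTR replicate 2 or 3, or without FS_DSS replicate 1, 3 or 4. It then lay between 0.0744 (without FS_DSS replicate 1) and 0.128 (without FS_CTR replicate 2). It stayed under 0.05 without FS_CTR replicate 1 or 4, or without FS_DSS replicate 2.

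Acsm3 (ENSMUSG00000030935.17, chr7:119360137-119386736, plus strand, 15 exons), an acyl-CoA synthetase of mitochondria, was at 73.8, 67.4, 49.4 and 35.6 CPM in FS_CTR and at 64.6, 58.4, 39.6 and 25.3 CPM in FS_DSS. In both groups replicates 3 and 4 were below replicates 1 and 2, and within each number the FS_DSS library was below the FS_CTR library. The spread within groups, 56.5 ± 17.3 and 47.0 ± 17.9 CPM (SD, n = 4 each), was larger than the difference between them, a Log2(FC) of -0.27 ± 0.31 (edgeR adjusted p = 0.609). It was -0.59 without FS_CTR replicates 3 and 4, -0.12 without FS_CTR replicate 1 and -0.064 without FS_DSS replicate 4. Its relatives Acsm1, Acsm2, Acsm4 and Acsm5 had 0 counts in all 8 libraries. Acsm3 overlaps Eri2 on the other strand.

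**Figure D2:**
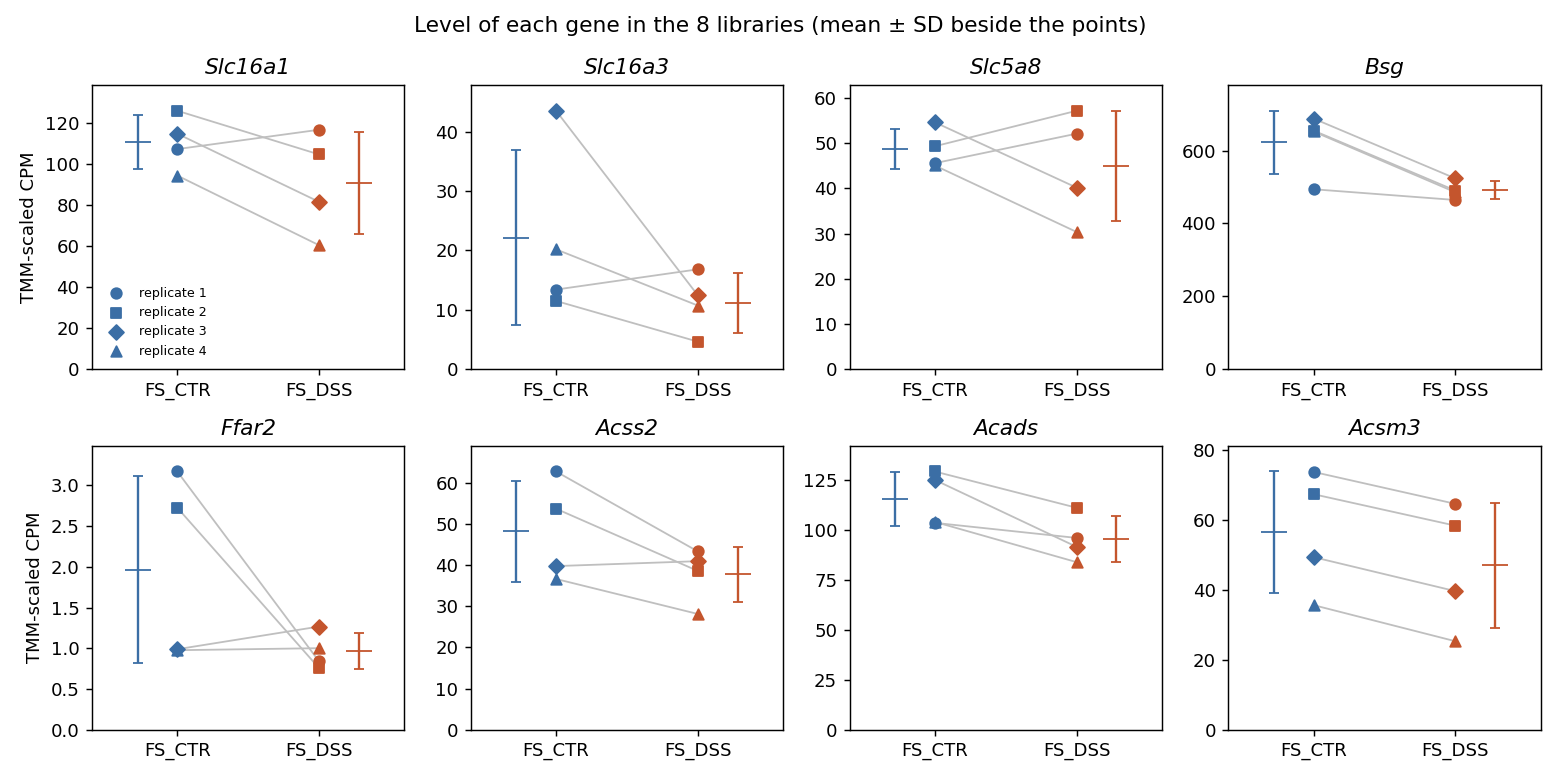
TMM-scaled CPM (vertical axes, starting at 0) of the 8 genes in each FS_CTR and FS_DSS library, with grey lines joining libraries of the same replicate number and bars giving the mean ± SD of each group. The groups overlap in every panel, and in Bsg, Acads and Acsm3 all 4 lines run downward. The share of all genes with 4 downward lines was not computed.

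Divided by the length of the canonical transcript, the mean FS_CTR levels were 344 ± 48.2 CPM per kilobase for Bsg, 61.7 ± 7.26 for Acads, 24.0 ± 2.88 for Slc16a1, 21.3 ± 6.53 for Acsm3, 16.0 ± 4.06 for Acss2, 8.98 ± 0.815 for Slc5a8, 4.71 ± 3.14 for Slc16a3 and 0.985 ± 0.577 for Ffar2 (SD over 4 libraries). The FS_CTR libraries of Slc16a1 and Acsm3, of Acsm3 and Acss2, and of Slc5a8 and Slc16a3 overlapped on this scale, so these neighbours were not separated, while the other neighbours did not overlap. The order of the means was the same in FS_DSS. The chaperone was thus present at 271 to 344 CPM per kilobase in the group means, above the carriers that it serves.

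Set against all 12729 genes tested, 8 of the 8 genes had a negative Log2(FC) while 52.5% of all genes did. At an unadjusted p of 0.05 in edgeR, 3 of the 8 were lower (Bsg, Ffar2 and Acads) against 13.4% of all genes, and 0 were higher against 10.6% of all genes. With the fold threshold of the study added, 1 of the 8 (Ffar2) was lower against 6.46% of all genes. At those thresholds 2 of the 8 (Slc16a3 and Ffar2) were lower in DESeq2, against 6.76%, and 1 (Slc16a3) with the replicate block, against 6.1%. The median Log2(FC) of the 8 was -0.31 and that of all genes was -0.021. The count of 3 became 1 without FS_CTR replicate 2 (Slc16a3), without FS_CTR replicate 3 (Ffar2) or without FS_DSS replicate 4 (Bsg). It was 2 without FS_CTR replicates 3 and 4 together (Ffar2 and Acss2). Which genes passed thus changed with the libraries kept, and Slc16a3 and Acss2 were not among the 3 of the full fit.

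After adjustment 0 of the 8 passed in edgeR, as did 0% of all genes, and 0 of the 8 passed in limma-voom, also against 0% of all genes. DESeq2 called 0 of the 8 lower, against 6.35% of the 12478 genes for which it gave an adjusted p. Groups that did not overlap, with FS_DSS lower, were found for 0 of the 8 genes and for 7.58% of all genes. The 8 genes were chosen as a pathway with earlier results of these data known, so their shared direction is given as a count and not as a test.

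Library totals in place of TMM factors moved the median of all genes by 0.33 on the log2 scale, to 0.31. On that scale Slc16a1 (0.022), Slc5a8 (0.22), Bsg (0.021) and Acads (0.055) turned positive and the other 4 stayed negative. Relative to the median of all genes under the same scaling, each of the 8 remained below it, from -0.08 for Slc5a8 to -1.20 for Ffar2.

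**Figure D3:**
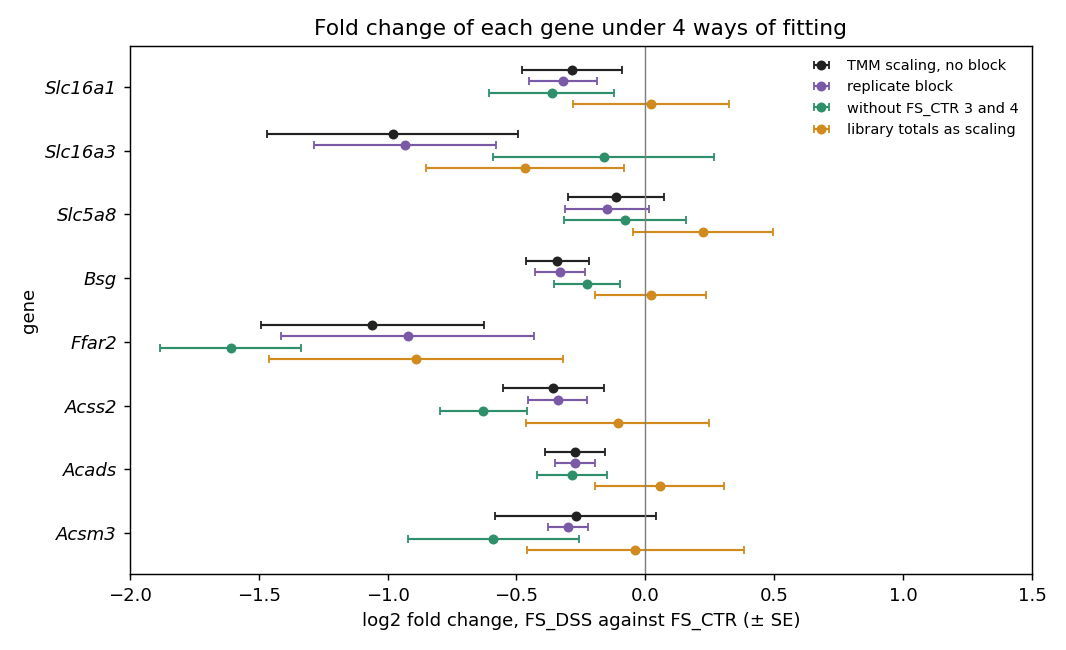
Log2 fold change of FS_DSS against FS_CTR (horizontal axis, bars are SE) for each of the 8 genes under 4 fits. Ffar2, Acss2 and Acsm3 lie further from 0 and Slc16a3 nearer to 0 without FS_CTR replicates 3 and 4, and library totals move every gene to the right.

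The deviations from the group means of libraries with the same replicate number had correlations of 0.382, 0.253, 0.183 and 0.265 for numbers 1 to 4. Replicates 3 and 4 correlated across numbers at 0.198, above the 0.183 of number 3, so number 3 was not set apart as a pair. The numbers were nevertheless taken as pairs. With this replicate block in the fit, 5 of the 8 genes were lower at an unadjusted p of 0.05, against 16.2% of all genes, in place of 3 without it. They were Acsm3 with an unadjusted p of 0.00962, Acads with 0.0135, Bsg with 0.0150, Acss2 with 0.0252 and Slc16a3 with 0.0401, all from edgeR. Ffar2 had an unadjusted p of 0.112 in this fit and Slc16a1 one of 0.0558, both short of the threshold. After adjustment 0 of the 8 passed with the block, against 1.41% of all genes, and the smallest adjusted p was 0.0794, for Acsm3.

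Within the pairs, the log2 difference of Acsm3 ran from -0.19 in pair 1 to -0.49 in pair 4, that of Bsg from -0.089 in pair 1 to -0.43 in pair 4, and that of Acads from -0.11 in pair 1 to -0.45 in pair 3. Those 3 genes were lower in FS_DSS in 4 of 4 pairs. Slc16a1, Slc16a3 and Acss2 were lower in 3 of 4 pairs, and Slc5a8 and Ffar2 in 2 of 4. The share of all genes lower in as many pairs was not computed, so these counts are a description only. For Ffar2 the differences of -1.46 and -1.36 in pairs 1 and 2 faced 0.25 and 0.024 in pairs 3 and 4. Slc5a8 had the opposite layout, with 0.19 and 0.21 in pairs 1 and 2 and -0.44 and -0.56 in pairs 3 and 4.

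Related genes were taken from 5 lists, chosen like the 8 genes with earlier results known. Genes named as lower were those with the smallest p in their list. Of all genes tested, 13.4% were lower and 10.6% higher at an unadjusted p of 0.05 in edgeR. Groups did not overlap, with FS_DSS lower, in 7.58% of all genes. Among other carriers, 10 of 16 were measured, 1 was lower and 0 were higher at an unadjusted p of 0.05, and the median Log2(FC) was -0.012. The lower one was Slc26a3, the chloride-bicarbonate exchanger of mature colonocytes, at 100, 112, 120 and 117 CPM in FS_CTR and 94.7, 84.8, 42.6 and 30.0 CPM in FS_DSS (Log2(FC) -0.83 ± 0.33, edgeR adjusted p = 0.168). The DESeq2 adjusted p of Slc26a3 was 0.0681. Without FS_CTR replicates 3 and 4 its Log2(FC) was -0.76 with an unadjusted p of 0.118. Its groups did not overlap, and FS_DSS replicates 3 and 4, the lowest libraries of Slc16a1, Slc5a8 and Acsm3 within FS_DSS, were also its lowest. Slc26a3 is 1 of 6 colonocyte markers, which summed to 4277 to 7510 CPM in FS_CTR and 3443 to 5824 CPM in FS_DSS. Car1 made up most of the sum, with means of 4268 CPM in FS_CTR and 3444 CPM in FS_DSS. Log2(FC) ran from -1.20 for Aqp8 to 0.091 for Krt20. Of the 6 markers 1 was lower at an unadjusted p of 0.05, against 13.4% of all genes. Their part in the levels of the carriers was not tested, and in bulk RNA fewer cells of a type cannot be told apart from less RNA in each cell.

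Of the other receptors for fatty acids, lactate and ketone bodies, 3 of the 7 found in the table were measured, and 0 were lower or higher at an unadjusted p of 0.05. Their median Log2(FC) was 0.23. Ffar3, the other main receptor for short-chain acids, was below the filter, at 0.195 to 0.494 CPM in FS_CTR and 0 to 0.230 CPM in FS_DSS.

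Among genes that form or use acyl-CoA, 11 of the 16 found were measured, with a median Log2(FC) of -0.11. At an unadjusted p of 0.05, 3 were lower and 0 higher, against 13.4% and 10.6% of all genes. Acss1, the mitochondrial counterpart of Acss2, was at 37.0, 34.2, 20.7 and 17.2 CPM in FS_CTR and 18.3, 16.6, 16.1 and 9.04 CPM in FS_DSS, a Log2(FC) of -0.87 ± 0.29 (edgeR adjusted p = 0.132, DESeq2 adjusted p = 0.0391) that was -1.25 without FS_CTR replicates 3 and 4. Its FS_CTR replicates 1 and 2 were the highest libraries, as for Acss2. Mcee, an epimerase of propionate breakdown, ran from 8.46 to 11.0 CPM in FS_CTR and from 6.04 to 7.94 CPM in FS_DSS without overlap (Log2(FC) -0.52 ± 0.15, edgeR adjusted p = 0.103, DESeq2 adjusted p = 0.0267). Acsf2, a synthetase for medium-chain acids, had a Log2(FC) of -0.58 ± 0.21 (edgeR adjusted p = 0.144, DESeq2 adjusted p = 0.0639).

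Among genes of fatty acid oxidation and ketone bodies, 18 of 19 were measured, with a median Log2(FC) of -0.23. Of these, 16 were negative, as were 52.5% of all genes. At an unadjusted p of 0.05, 5 were lower and 0 higher, against 13.4% and 10.6% of all genes. DESeq2 called 3 of them lower after adjustment, against 6.35% of all genes. Oxct1, which makes ketone bodies usable as fuel, ran from 232 to 254 CPM in FS_CTR and from 140 to 213 CPM in FS_DSS, with no overlap (Log2(FC) -0.38 ± 0.14, or -0.33 with an unadjusted p of 0.0912 without FS_CTR replicates 3 and 4). Acaa2, a thiolase, had a Log2(FC) of -0.49 ± 0.14 and Etfb, a subunit of the flavoprotein that takes electrons from Acads, of -0.91 ± 0.21. Etfb was at 49.2, 72.2, 102 and 91.7 CPM in FS_CTR and at 37.1 to 46.1 CPM in FS_DSS, and without FS_CTR replicates 3 and 4 its Log2(FC) was -0.54 ± 0.17. The edgeR adjusted p of these 3 genes lay between 0.0791 and 0.144. The DESeq2 adjusted p was 0.0677 for Oxct1, 0.0261 for Acaa2 and 0.00226 for Etfb.

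Among genes of lactate and pyruvate use, 17 of 18 were measured, with a median Log2(FC) of -0.27. Of these, 15 were negative, as were 52.5% of all genes. At an unadjusted p of 0.05, 7 were lower and 0 higher, against 13.4% and 10.6% of all genes. DESeq2 called 3 of them lower after adjustment, against 6.35% of all genes. Both subunits of the mitochondrial pyruvate carrier were separated between the groups. Mpc1 was at 41.8, 48.1, 45.6 and 46.0 CPM in FS_CTR and 27.6, 38.9, 31.5 and 23.3 CPM in FS_DSS (Log2(FC) -0.58 ± 0.15, edgeR adjusted p = 0.0886, DESeq2 adjusted p = 0.0107). Mpc2 was at 38.2, 43.8, 43.1 and 44.0 CPM in FS_CTR and 27.5, 34.9, 31.7 and 28.0 CPM in FS_DSS (Log2(FC) -0.47 ± 0.10, edgeR adjusted p = 0.0791, DESeq2 adjusted p = 0.00327). In both genes every FS_DSS library lay below every FS_CTR library, including FS_CTR replicates 3 and 4. Of all genes, 7.58% were separated in this way. Ldha, the lactate dehydrogenase subunit that turns pyruvate into lactate, was at 868, 958, 1127 and 1090 CPM in FS_CTR and 807, 806, 823 and 718 CPM in FS_DSS (Log2(FC) -0.36 ± 0.12, edgeR adjusted p = 0.129, DESeq2 adjusted p = 0.0203). Its Log2(FC) was -0.21 with an unadjusted p of 0.0732 without FS_CTR replicates 3 and 4. Pdhb, a subunit of pyruvate dehydrogenase, had a Log2(FC) of -0.27 ± 0.087 (edgeR adjusted p = 0.122, DESeq2 adjusted p = 0.0529). It was -0.19 with an unadjusted p of 0.0694 without FS_CTR replicates 3 and 4.

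**Figure D4:**
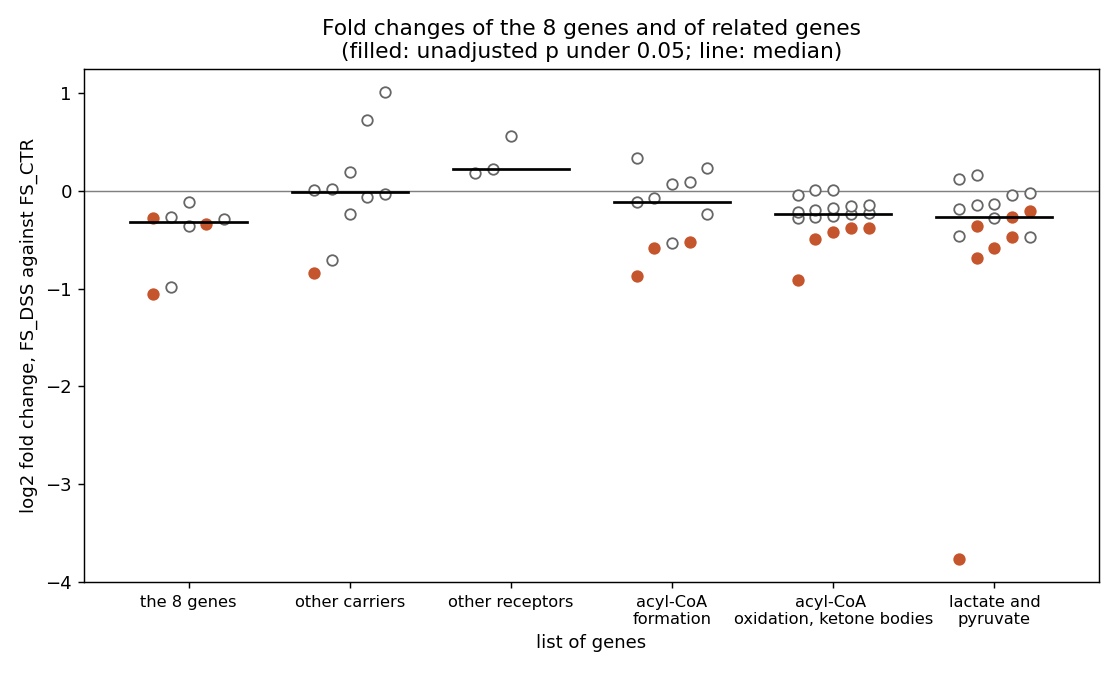
Log2 fold change of FS_DSS against FS_CTR (vertical axis) of the 8 genes and of the measured genes of each related list, with 1 point per gene, filled where the unadjusted p was under 0.05, and a line at the median. Every filled point lies below 0, and the medians run from -0.31 for the 8 genes to 0.23 for the 3 other receptors. Of all genes, 13.4% were lower and 10.6% higher at that p. The lowest point, among lactate and pyruvate genes, is Pcx, which had 0 CPM in FS_CTR replicate 2 and in FS_DSS replicates 2 to 4.

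Markers of other cells of the colon epithelium also differed in level between libraries. Beside the counts below, 13.4% of all genes were lower and 10.6% higher at an unadjusted p of 0.05 in edgeR. The 4 stem cell markers, with Axin2 the highest in mean and Ascl2 the lowest, summed to 63.4 to 167 CPM in FS_CTR and 22.2 to 70.1 CPM in FS_DSS, with 3 of 4 lower at an unadjusted p of 0.05. Tuft cell markers summed to 11.0 to 14.6 CPM in FS_CTR and 9.03 to 11.9 CPM in FS_DSS (1 of 4 lower). Goblet cell markers ran from 729 to 1688 CPM and from 1024 to 1942 CPM, with 1 of 6 higher (Fcgbp, Log2(FC) 0.49 ± 0.16, edgeR adjusted p = 0.120, DESeq2 adjusted p = 0.0313). Log2(FC) of the 6 goblet markers ran in both directions, from -0.60 for Spdef to 0.49 for Fcgbp. Markers of enteroendocrine cells, which are known to carry Ffar2, summed to 65.7 to 189 CPM and 111 to 239 CPM, with 0 of 6 lower or higher. Immune markers, another known site of Ffar2, summed to 6.01 to 14.8 CPM and 7.32 to 17.5 CPM. Csf1r, the highest of them in mean, was at 3.22 to 10.8 CPM in FS_CTR and 3.38 to 11.9 CPM in FS_DSS. Ptprc was at 0.0985 to 0.823 CPM in FS_CTR and 0.131 to 0.570 CPM in FS_DSS. The part of any of these lists in the levels of the 8 genes was not tested.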

How the data were processed

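RNA from 8 organoid samples, 4 FS_CTR and 4 FS_DSS, was read by paired-end sequencing of stranded libraries. The deposited values are counts per gene symbol, which the authors estimated with Salmon 1.10.1 on the GRCm39 transcriptome and summed per gene. The values were whole numbers, and the authors' own normalization with DESeq2 1.36.0 is not part of them. The sources used here do not give the annotation release or the strand setting. Columns of no mapped sample numbered 0. The series' design text describes another study and was not used.

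The test was edgeR's quasi-likelihood test (edgeR 4.0.16 in R 4.3.3, two-sided, condition as the only term, TMM scaling with full library totals, filterByExpr, Benjamini-Hochberg adjustment over 12729 genes). Standard errors are the size of Log2(FC) divided by the square root of F. Correlations used log2 CPM with a pseudocount of 0.5. The comparison was tested on simulated data before use. The simulated libraries shared the same mean composition and the same spread setting for every gene. That test therefore does not show how the comparison performs with libraries like FS_CTR replicates 3 and 4. DESeq2 1.42.0, limma-voom (limma 3.58.1), other scalings and filters, the replicate number as a block and each library left out in turn were alternatives. Leaving out FS_CTR replicates 3 and 4 together, and TMM without the mitochondrial genes, were chosen after seeing the data. No source used here says what the replicate numbers stand for. They were taken as pairs because all 4 same-number correlations passed 0.1. Correlations across numbers also passed 0.1, at up to 0.161 for replicates 1 and 2 and 0.198 for replicates 3 and 4. The cutoff therefore does not set pairs apart from other groupings of the replicates.

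The 8 genes and all lists were chosen with earlier results of these data known. Named genes were the 8, up to 4 per direction with the smallest p under 0.05 in each related list, and the 3 genes most like any of the 8 past both thresholds of the study in edgeR. Of these, 1 gene of a related list is not reported here. Ffar3, Pcx, Fcgbp, Spdef and the relatives of Acsm3 were named after their values were seen. Positions and transcript lengths came from GENCODE M39 (GRCm39), and figures were made with Python 3.11.15.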

Additional observations from a re-analysis of the deposited data

Results flagged for a closer look

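Of 42 groups of 4 libraries examined, 3 held a library whose gap to its nearest neighbour was a larger part of the group's range than the critical value of Dixon's test, where chance gives about 1 in 20. FS_DSS replicate 2 had a log2 ratio of Slc16a3 to Slc16a1 of -4.37, with the nearest library of its group at -2.76. FS_CTR replicate 1 had the lowest Mpc2 level of its group, 38.2 CPM, with the nearest at 43.1 CPM. FS_DSS replicate 4 had the lowest Ldha level of its group, 718 CPM, with the nearest at 806 CPM.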

How the results depend on the processing

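Library totals as the scaling turned Slc16a1 (0.022), Slc5a8 (0.22), Bsg (0.021) and Acads (0.055) positive, left 4 of the 8 genes negative and 0 lower at an unadjusted p of 0.05, and gave 144 lower and 1256 higher genes among all genes at the thresholds of the study (822 and 326 with TMM), with 1 lower and 1 higher after adjustment. It gave medians of 0.32 for other carriers, 0.58 for other receptors, 0.15 for acyl-CoA formation, 0.050 for oxidation and 0.094 for lactate and pyruvate. The replicate block gave 5 of the 8 genes lower at an unadjusted p of 0.05, 179 lower and 68 higher genes after adjustment, and a median of 0.061 for other carriers, and it changed no adjusted call among the 8. DESeq2 called 792 lower and 641 higher genes after adjustment, where edgeR and limma-voom called 0. Without a fold threshold 1706 genes were lower and 1347 higher. The median of other carriers was also positive with no filter (0.0088), with limma-voom (0.069) and with TMM without the mitochondrial genes (0.0028). Without FS_CTR replicates 3 and 4 together, 1 gene was lower and 4 were higher after adjustment, the medians were -0.12 for other carriers and -0.35 for both acyl-CoA formation and oxidation, and the carrier ratio differed by 0.12.

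With each library left out in turn, Log2(FC) ran from -0.44 to -0.29 for Bsg and from -0.25 to 0.035 for Slc5a8, and 1 to 4 of the 8 genes were lower at an unadjusted p of 0.05. Among all genes 177 to 608 were higher at the thresholds of the study, and after adjustment 0 to 695 were lower and 0 to 505 higher, the highest counts both without FS_CTR replicate 1. The medians ran from -0.063 to 0.035 for other carriers, from 0.21 to 0.60 for other receptors, from -0.24 to 0.047 for acyl-CoA formation and from -0.34 to -0.13 for oxidation, and the carrier ratio differed by -0.88 to -0.14. The cause of these shifts was not tested. For Slc16a3, Ffar2, Acss2 and Acsm3 the direction was kept in all 17 alternatives. Their Log2(FC) ran from -1.25 to -0.16, -1.61 to -0.74, -0.63 to -0.11 and -0.59 to -0.039 in turn. None of these genes passed after adjustment in any alternative. In 12 of the 17 alternatives 0 of all genes were lower after adjustment, so keeping this call says little.

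Depth limits Ffar2 most, at 12 to 100 counts a library. Only 4 libraries stand in each group, and leaving out FS_CTR replicate 1 alone moved Bsg past the adjusted threshold.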
